A study of Mus musculus with 28 samples.

Results

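The genes followed here are 10 genes of the mitochondrial genome that encode subunits of the respiratory chain: mt-Nd1, mt-Nd2, mt-Nd4, mt-Nd5 and mt-Nd6 of complex I, mt-Cytb of complex III, mt-Co1, mt-Co2 and mt-Co3 of complex IV, and mt-Atp6 of complex V. They were chosen by name, make up 10 of the 35858 gene symbols counted in the liver and pancreas libraries and 10 of the 13 protein genes of the mitochondrial genome, and all 10 passed the filter on low counts in both tissues. Each gene's value is the estimated count summed over its transcripts, compared between A3B and control mice library by library. It is given as a share of all counts in the library and after TMM scaling, which sets libraries side by side by their less extreme genes.

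The study asked what human APOBEC3B (A3B), an enzyme that turns cytosine into uracil in single-stranded DNA, does to mouse tissues when it is switched on throughout the body. A3B mice carried TetO-A3B, a fusion of A3B and turboGFP in the ColA1 locus, together with CAGs-rtTA3, a constitutive driver that turns the transgene on in the presence of doxycycline. The control mice of this set carried the A3B transgene without the driver by their liver labels. RNA-seq of 6 A3B livers (mice 44, 137, 49, 125, 48 and 153), 2 control livers (45 and 168), 6 A3B pancreases (44, 53, 49, 125, 137 and 153) and 2 control pancreases (45 and 168) was used, and 7 mice gave both tissues. Adult mice of 4 weeks received food with 625 ppm doxycycline, and the labels give 10 days of treatment for all 16 samples. The methods of the study list doxycycline for control littermates too, while a legend describes the controls of the sequencing as without it, so whether these controls received the drug could not be settled. The genotype labels of 4 pancreases go against their titles: A3B pancreases 44 and 137 are labelled with the transgene alone, and both control pancreases with transgene and driver. Groups follow the titles here. Neither A3B nor turboGFP has a row in the mouse transcript set, so the groups could not be checked against the transgene.

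Mitochondria keep a small circular genome that is copied and transcribed by its own enzymes. It is read as long transcripts from both strands, which are then cut into messenger RNAs, and its proteins are the membrane core of complexes I, III and IV and of the ATP synthase. All other subunits are encoded in the nucleus and imported, and complex II is built from nuclear subunits alone. Hepatocytes and pancreatic acinar cells both rely on this machinery for ATP, the first for metabolism and the second for the synthesis and secretion of digestive enzymes.

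In GENCODE M21, on the GRCm38 build, the 10 genes lie between chrM:2751 (the start of mt-Nd1) and chrM:15288 (the end of mt-Cytb), without introns and with 1 transcript each, and are 519 (mt-Nd6) to 1824 (mt-Nd5) bases long. All but mt-Nd6 are on the plus strand. This gene is on the minus strand at chrM:13552-14070, and its end overlaps the end of mt-Nd5 at chrM:11742-13565. The strand setting of the quantification is not given in the sources used here, so reads from that short overlap could belong to either gene. Reads from the opposite strand over the rest of a gene, mt-Nd6 included, could also be part of its count. A further 7 genes in the index are nuclear copies of mitochondrial genes, next to each other on the minus strand of chr1 from 24611535 to 24616197. The stretches below show why the copies matter for the counts. Each starts the coding sequence of a mitochondrial gene or its copy, except for the first pair, which shows where the copy of mt-Co1 begins to match. Capitals mark the bases that belong to the longest identical run of gene and copy.

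mt-Co1 (chrM:6382-6405): gtctaaccggaaTTGTTTTATCCA
Gm29216 (chr1:24616173-24616196, minus strand): gattggcaggatTTGTTTTATCCA
mt-Co2 (chrM:7013-7036): ATGGCCTACCCATTCCAACTTGGT
Gm28661 (chr1:24615542-24615565, minus strand): ATGGCCTACCCATTCCAACTTGGT
mt-Atp6 (chrM:7927-7950): ATGAACGAAAATCTATTTGCCTCA
Gm10925 (chr1:24614628-24614651, minus strand): ATGAACGAAAATCTATTTGCCTCA
mt-Co3 (chrM:8607-8630): ATGACCCACCAAACTCATGCATAT
Gm28437 (chr1:24613948-24613971, minus strand): ATGACCCACCAAACTCATGCATAT

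The identical run covers 681 bases (99.6%) of mt-Co2, 678 bases (99.6%) of mt-Atp6, 783 bases (99.9%) of mt-Co3 and the last 479 bases (31.0%) of mt-Co1. Reads from these stretches cannot be assigned to gene or copy by sequence. Gm28439, which is identical to 63.6% of mt-Nd4, received 0 counts in every library, and no copy in the index belongs to mt-Nd1, mt-Nd2, mt-Nd5, mt-Nd6 or mt-Cytb. Values of mt-Co1, mt-Co2, mt-Co3 and mt-Atp6 are therefore uncertain and are also given with their copies added.

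The 10 genes together drew at least 381936 counts in each library. The livers held 65161064 to 98780481 estimated counts in the A3B group and 104834346 and 118976013 in the controls, and the pancreases 74836907 to 87633469 and 87288183 and 95604352. Libraries stood apart in composition. The 10 most abundant genes took 62.2% and 59.5% of all counts in the control pancreases against 12.04 to 20.4% in the A3B pancreases, and the TMM factors were 0.210 and 0.443 against 1.30 to 1.79. In the livers the factors were 0.808 and 0.779 in the controls against 0.931 to 1.29 in the A3B group. In bulk tissue, fewer cells of a type and less RNA per cell cannot be told apart.

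The 10 genes together took 2.94% and 3.50% of all counts in control livers 45 and 168. The A3B livers held 3.25% (137), 3.57% (153), 4.08% (125), 4.63% (44), 9.82% (49) and 20.99% (48), a mean of 7.73% ± 6.94 (SD, n = 6) against 3.22% ± 0.40 (SD, n = 2). The ratio of the group means was 2.40, but it came mostly from livers 48 and 49, and 1 A3B liver lay within the range of the controls. Without those 2 livers the ratio was 1.21. The 3 A3B livers without Y-chromosome expression (44, 49 and 48) held the 3 highest shares and the 3 with it the lowest of the group, while among the controls liver 45, without it, was below liver 168, with it. With Y-chromosome expression as a covariate the median log2 fold change of the 10 genes in liver was 0.52, and none was called. Livers 49 and 48 also had the lowest total counts of the 8 livers, 65161064 and 68751209, and the lowest summed TPM of 7 hepatocyte markers, 32032 and 45666 against 65067 to 144521 in the other 6. The part of depth and of cell composition in the mitochondrial share was not tested.

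In the pancreas the share was smaller than in every liver. Controls 45 and 168 held 1.08% and 1.03%, and the A3B pancreases 0.478% (153), 0.509% (137), 0.539% (44), 0.644% (125), 0.880% (49) and 1.09% (53). In the A3B group 5 of the 6 lay below both controls, and pancreas 53 was level with control 45. The means were 0.689% ± 0.243 (SD, n = 6) and 1.05% ± 0.0395 (SD, n = 2), a ratio of 0.654. When the genes among the 10 most abundant of any library (49 genes over all libraries) were left out of the denominator, except for the mitochondrial genes themselves, the controls stood at 3.68% and 3.03%, the A3B pancreases at 0.669 to 1.30%, and the ratio was 0.263.

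**Figure D1:**
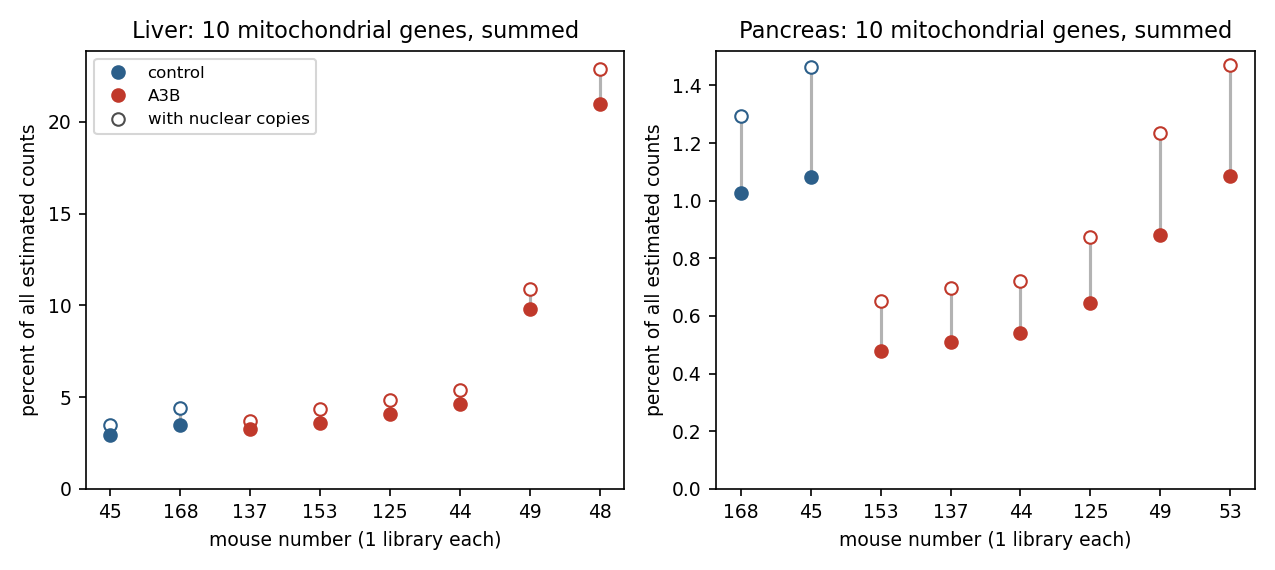
Summed share of the 10 mitochondrial genes in each library, as a percentage of all estimated counts, for liver (left) and pancreas (right), with mouse numbers on the x axis. Filled points are the 10 genes, open points add the counts of their nuclear copies, blue is control and red is A3B. Liver 48 stands at 20.99% and liver 49 at 9.82%, and 5 of 6 A3B pancreases lie below both controls.

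The genes were ordered by their level per length (TPM) in each tissue. In control livers mt-Co1, the catalytic subunit of cytochrome c oxidase, was highest at 12988 ± 2095 TPM (SD, n = 2), followed by mt-Cytb, the cytochrome b of complex III, at 7722 ± 984 TPM. The lowest were mt-Nd6 at 1983 ± 554 TPM and mt-Nd5 at 1575 ± 329 TPM, the latter a subunit of the proton-pumping arm of complex I. Between them, mt-Co3, mt-Nd2, mt-Atp6, mt-Nd1 and mt-Nd4 changed places with their neighbours from 1 control liver to the other. In control pancreases mt-Co1 was at 2620 ± 723 TPM, mt-Co3 at 2187 ± 583 TPM and mt-Cytb at 2022 ± 157 TPM, which did not separate from each other in both libraries, and mt-Nd5 was lowest at 263 ± 30.1 TPM. In the A3B groups mt-Co1 was again the highest in all 6 livers (mean 23593 ± 16417 TPM, SD, n = 6) and in all 6 pancreases (2208 ± 886 TPM), and mt-Nd5 had the lowest mean in both, though in 3 of the 6 livers another gene was lowest. By group mean and without its nuclear copy, mt-Co2 was at 2749 ± 230 TPM in control livers, above mt-Nd6 and mt-Nd5 alone. In A3B livers it was at 9780 ± 11072 TPM, below mt-Co1 and mt-Cytb alone. The A3B mean rests on livers 48 and 49 (30971 and 13239 TPM), and the A3B median of mt-Co2, 3650 TPM, was the lowest of the 10 genes. With its nuclear copy added, the A3B liver median of mt-Co2 went from 0.136% to 0.371% of counts. The mean of the control livers went from 0.101% to 0.349%. Its place in the order therefore depends on how counts are split between gene and copy.

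In liver none of the 10 genes passed the test between A3B and control (edgeR quasi-likelihood test, adjusted p 0.267 to 0.695), where 3.66% of the 17365 genes tested did in either direction. None had an unadjusted p under 0.05, against 22.9% of all genes, and DESeq2 also called 0 of the 10. The fitted log2 fold changes on the TMM scale were all positive, from 0.58 for mt-Co1 to 1.66 for mt-Co2, with a median of 0.89 beside a median of 0.21 over all genes. The spread among A3B livers was large (biological coefficient of variation 0.570 over all genes).

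In liver 2 genes of complex I did not overlap between the groups. The transcript of mt-Nd6, the only messenger RNA read from the other strand, was at 672 and 557 CPM on the TMM scale in control livers 45 and 168. In the A3B livers it was at 797 (lowest), 1136 (median) and 3017 (highest, liver 48). All 6 A3B livers were above both controls, and the log2 fold change was 1.21 ± 0.61 (SE, adjusted p = 0.267 by edgeR). For mt-Nd5 the controls were at 2565 and 2261 CPM and the A3B livers at 2781, 4387 and 10776 (lowest, median, highest), again without overlap, with a log2 fold change of 1.10 ± 0.63 (adjusted p = 0.322 by edgeR). These were 2 of the 10 genes with every A3B liver above both controls on this scale, a pattern found in 15.0% of all genes tested. The 2 may not be separate measures, because the strand setting is not given. As a share of all counts mt-Co2 joined them, so that 3 of 10 did not overlap, beside 29.3% of all genes, but with its nuclear copy added mt-Co2 overlapped between the groups.

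The other complex I genes overlapped between the groups in liver. The transcript of mt-Nd1, which lies in the membrane arm next to the quinone site, was at 1820 and 2981 CPM in the controls and at 2016, 2432 and 10880 CPM in the A3B livers. For mt-Nd2 the controls were at 2890 and 3190 CPM and the A3B livers at 2336, 3142 and 15463 CPM. For mt-Nd4 they were at 3067 and 3790 CPM against 2163, 3215 and 18654 CPM. In each of these the A3B median lay between the 2 controls and the highest value was that of liver 48.

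The groups overlapped for complexes III, IV and V as well, and liver 48 was again the highest for each gene. For mt-Cytb the controls were at 6959 and 6946 CPM and the A3B livers at 5177, 7339 and 37594 CPM, 3 above and 3 below. For mt-Co1 the controls were at 13529 and 20236 CPM and the A3B livers at 11957, 15832 and 70404 CPM. The A3B median lay between the controls. For mt-Co2, which carries the copper centre that takes electrons from cytochrome c, the controls were at 1241 and 1340 CPM and the A3B livers at 1028, 1381 and 14652 CPM. For mt-Co3 the values were 1965 and 2855 CPM against 1271, 1925 and 12447 CPM. For mt-Atp6, a part of the proton channel of the ATP synthase, they were 1919 and 1484 CPM against 1202, 1631 and 11773 CPM.

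Liver 48 decided the sign of several liver values. Without it the median log2 fold change of the 10 genes was 0.22, and the fitted values were -0.13 for mt-Co1, -0.08 for mt-Co3, -0.05 for mt-Cytb and -0.10 for mt-Nd4. Without livers 48 and 49, a choice made after the values were seen, the median was -0.19, and mt-Nd5 and mt-Nd6 alone remained positive. Under scaling by total counts, which shifted the median of all genes from 0.21 to 0.67, the median of the 10 genes was 1.37 and again none was called (5.06% of all genes were called higher), with unadjusted p-values by edgeR of 0.0321 for mt-Nd5 and 0.0226 for mt-Nd6. On that scale and without livers 48 and 49, mt-Nd6 was called higher with a log2 fold change of 1.03. In that fit, also chosen after the values were seen, the median was 0.28 for the 10 genes and 0.53 for all genes.

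**Figure D2:**
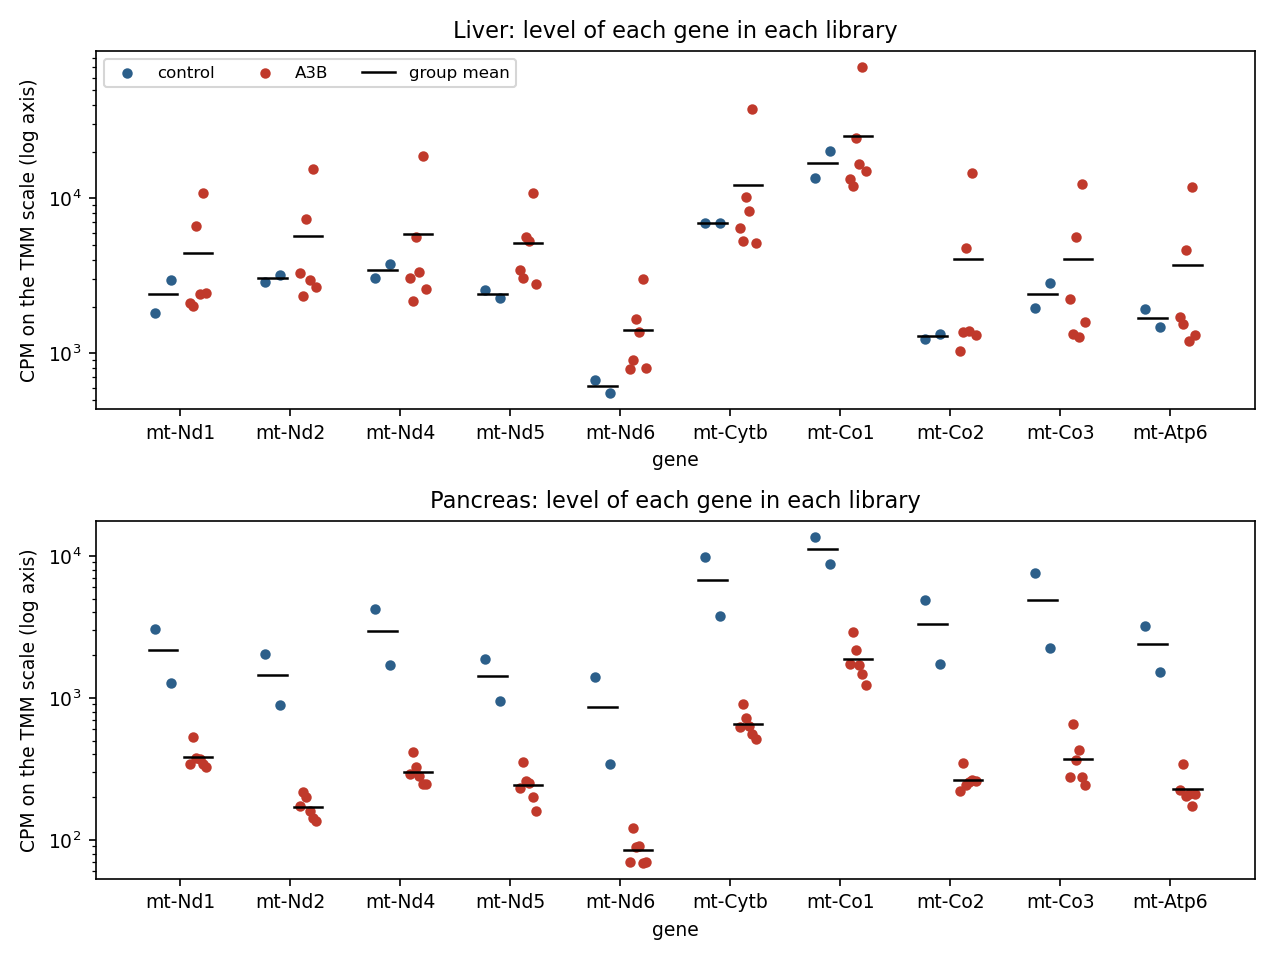
Level of each of the 10 genes in each library, in CPM on the TMM scale with a log axis, for liver (top) and pancreas (bottom). Blue points are controls, red points A3B, and the black line is the group mean. In liver the groups overlap for 8 genes and the highest A3B value is that of liver 48, and in pancreas every A3B library is below both controls.

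In pancreas all 10 genes fell in A3B mice on the TMM scale, where 14.9% of the 19123 genes tested fell and 17.0% rose. The log2 fold changes ran from -2.51 (mt-Nd1) to -3.72 (mt-Co3), with a median of -3.32 beside 0.09 over all genes and adjusted p-values of 0.000175 to 0.00101 (edgeR quasi-likelihood test). For all 10 every A3B pancreas was below both controls, a pattern found in 18.9% of all genes tested. DESeq2 also called 10 of 10, with a median of -3.37 beside 0.04 over all genes. All 10 were called whichever pancreas was left out, but the size of the fall moved with the control that remained. The median was -2.42 without control 45 and -3.80 without control 168, and mt-Co3 ranged from -4.33 to -2.57, mt-Co2 from -4.19 to -2.70, mt-Cytb from -3.88 to -2.51 and mt-Nd1 from -2.99 to -1.73. Without A3B pancreases 44 and 137, labelled with the transgene alone, 10 of 10 fell too (median -3.22), but the 2 controls, whose labels also go against their titles, could not be left out.

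Among the complex IV genes, mt-Co3 was at 7582 and 2237 CPM on the TMM scale in control pancreases 45 and 168, and at 243, 322 and 652 CPM (lowest, median, highest) in the A3B pancreases. Its log2 fold change was -3.72 ± 0.47 (SE, adjusted p = 0.000449 by edgeR). For mt-Co2 the controls were at 4898 and 1747 CPM and the A3B pancreases at 221, 258 and 349 CPM, a log2 fold change of -3.65 ± 0.36 (adjusted p = 0.000175 by edgeR). For both genes the 2 controls were further apart, in CPM, than the 6 A3B pancreases. The catalytic subunit mt-Co1 was at 13631 and 8767 CPM against 1229, 1727 and 2891 CPM, a smaller log2 fold change of -2.58 ± 0.39 (adjusted p = 0.00101 by edgeR).

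In complex I, mt-Nd6 fell from 1394 and 339 CPM to 69.1, 79.3 and 121 CPM, a log2 fold change of -3.35 ± 0.41 (adjusted p = 0.000379 by edgeR). The controls were far apart here, yet the lower of them was above the highest A3B pancreas. Leaving out 1 pancreas gave log2 fold changes of -4.03 to -1.99 for mt-Nd6. For mt-Nd4 the values were 4217 and 1703 CPM against 246, 287 and 414 CPM (log2 fold change -3.30 ± 0.35), and for mt-Nd2 2032 and 889 CPM against 136, 166 and 217 CPM (-3.09 ± 0.32). The smallest falls were those of mt-Nd5, from 1880 and 958 CPM to 159, 242 and 356 CPM (-2.55 ± 0.34), and of mt-Nd1, from 3050 and 1279 CPM to 324, 356 and 530 CPM (-2.51 ± 0.34). For all 5 genes of complex I control 45 was the higher control.

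In complex III, mt-Cytb was at 9802 and 3802 CPM in the controls and at 517, 628 and 902 CPM in the A3B pancreases, a log2 fold change of -3.37 ± 0.38. In complex V, mt-Atp6 was at 3233 and 1525 CPM against 173, 211 and 341 CPM (-3.39 ± 0.34). Among the A3B pancreases, number 53 was the highest for all 10 genes. The 3 protein genes of the mitochondrial genome outside the set also fell, with log2 fold changes of -3.79 for mt-Nd3, -3.00 for mt-Atp8 and -2.54 for mt-Nd4l.

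The size of the fall in pancreas depended on the scaling. Under scaling by total counts the median of all genes stood at 2.29, 70.5% of genes were called higher and 1.10% lower. On this scale 5 of the 10 mitochondrial genes were called lower: mt-Co2 (-1.17 ± 0.29, adjusted p = 0.00383 by edgeR), mt-Co3 (-1.18 ± 0.43), mt-Cytb (-0.91 ± 0.33), mt-Nd4 (-0.84 ± 0.32) and mt-Atp6 (-0.98 ± 0.32). The other 5 did not pass, at -0.78 for mt-Nd6, -0.66 for mt-Nd2, -0.24 for mt-Co1, -0.15 for mt-Nd5 and -0.07 for mt-Nd1. By share of counts mt-Co2, mt-Cytb, mt-Nd2, mt-Nd4 and mt-Atp6 were below both controls in all 6 A3B pancreases, 5 of 10 beside 1.06% of all genes. With its nuclear copy added mt-Co2 overlapped between the groups, with 4 of 6 A3B pancreases below both controls, while mt-Atp6 with its copy was still below in all 6. Leaving out 1 pancreas at a time on this scale gave 1 called gene without control 45, 2 without A3B pancreas 137, 3 without A3B pancreas 153 and 4 to 7 without any other. Relative to the median of all genes, the median of the 10 genes lay 3.42 units of log2 lower with TMM and 3.10 lower with total counts.

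**Figure D3:**
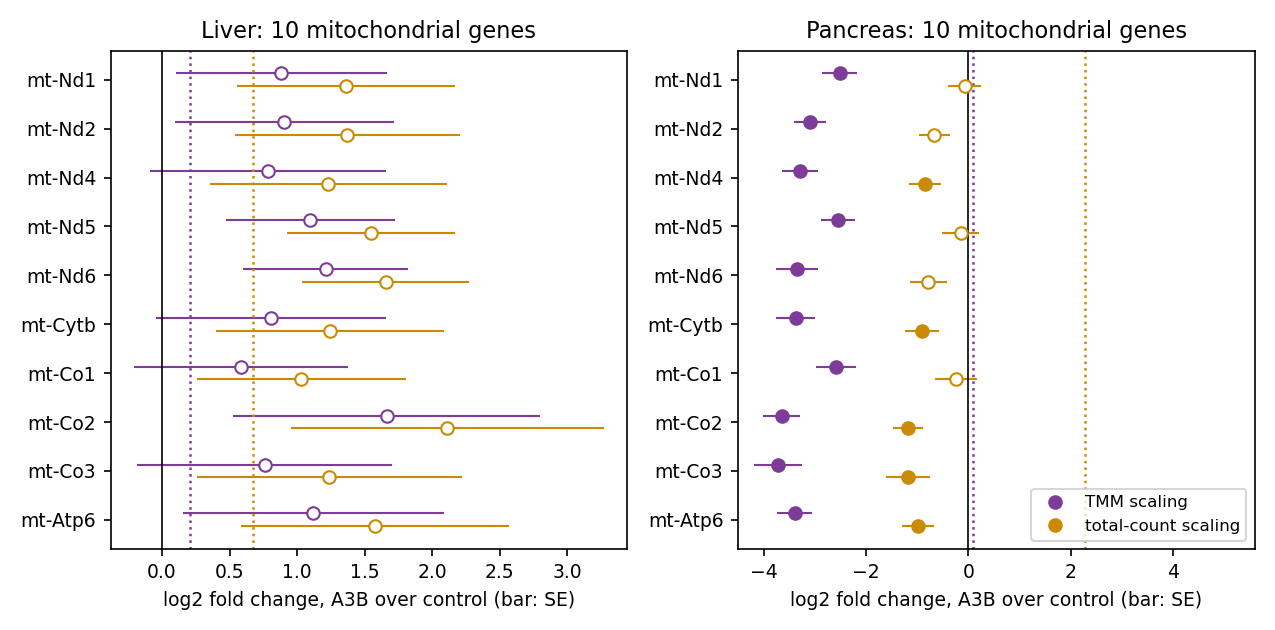
Log2 fold change of A3B over control for each of the 10 genes in liver (left) and pancreas (right), with SE bars. Purple is TMM scaling and ochre scaling by total counts, filled points passed an adjusted p of 0.05, and the dotted lines are the median of all genes tested on each scale. In liver no gene passed on either scale, and in pancreas 10 passed with TMM and 5 with total counts, all lower.

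Shares within the set do not depend on the scaling of the library. In control pancreases 45 and 168 mt-Nd1 made up 5.90% and 5.50% of the counts of the 10 genes, and in the A3B pancreases 7.57 to 9.53%, with a median of 8.27%. For mt-Nd5 the controls were at 3.64% and 4.12% and the A3B pancreases at 4.68 to 5.76%. For both genes all A3B pancreases were above both controls. In the opposite direction mt-Cytb was at 18.95% and 16.35% against 13.32 to 15.22%, mt-Nd4 at 8.15% and 7.33% against 6.11 to 7.25%, and mt-Atp6 at 6.25% and 6.56% against 4.13 to 6.21%. With 6 against 2 libraries an exact permutation test on ranks cannot give a two-sided p below 0.0714, so these are descriptions. In liver mt-Nd5 made up 7.002% and 4.953% in the controls and 5.24 to 12.04% in the A3B livers, which overlapped.

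The split of counts between the genes and their nuclear copies differed between libraries. Of the counts on mt-Co2 and Gm28661 together, 66.0% and 74.6% were on the copy in the control livers, 21.2 to 69.3% in the A3B livers, 49.1% and 46.0% in the control pancreases and 57.4 to 72.6% in the A3B pancreases. This split is made by the quantification between sequences that are identical over almost all of the gene. With the copies added, the liver log2 fold change of mt-Co2 was 0.54 ± 0.84 in place of 1.66, that of mt-Co3 0.39 and that of mt-Atp6 0.60, none of them called. In pancreas the values with copies were -3.08 ± 0.40 for mt-Co2, -3.25 ± 0.43 for mt-Co3, -3.19 ± 0.36 for mt-Atp6 and -2.71 ± 0.40 for mt-Co1, and all 10 genes fell. With copies added and scaling by total counts, 2 of 10 were called lower in pancreas, with a median of -0.70 beside 2.29 over all genes. With total counts alone 1.10% of all genes were called lower. Adding the copies moved the summed share in the pancreas to 1.46% and 1.29% in the controls and to 0.653 to 1.47% in the A3B group.

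The mitochondrial subunits can also be set against nuclear subunits of the same complexes in the same library. The summed TPM of the 10 genes was 0.991 and 0.912 times that of 78 nuclear subunits of complexes I to V in control pancreases 45 and 168. In the A3B pancreases this ratio was 0.429 (lowest), 0.551 (median) and 0.686 (highest), below both controls in all 6, at group means of 0.555 ± 0.121 (SD, n = 6) and 0.951 ± 0.0556 (SD, n = 2). With the nuclear copies counted as mitochondrial the ratios were 1.64 and 1.37 in the controls and 0.746 to 1.27 in the A3B pancreases, still without overlap. Per complex the A3B pancreases had 0.369 to 0.580 for complex I (controls 0.848 and 0.725), 0.436 to 0.785 for complex III (1.07 and 0.830), 0.902 to 1.47 for complex IV (2.27 and 2.13) and 0.124 to 0.213 for complex V (0.284 and 0.319). In each of the 4 complexes all A3B pancreases were below both controls. In liver the ratio over all complexes was 2.27 and 2.10 in the controls and 1.61 to 12.01 in the A3B livers, where liver 137 was lowest and liver 48 highest. Ratios of summed TPM over genes chosen with earlier results known were given no test.

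**Figure D4:**
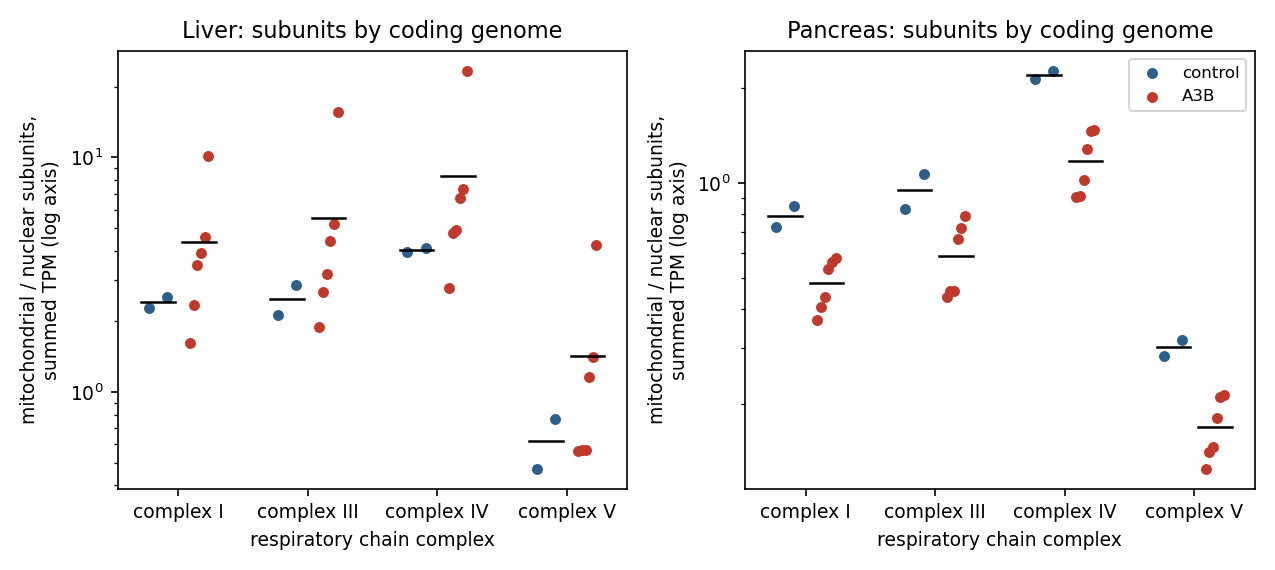
Summed TPM of the mitochondrially encoded subunits divided by that of the nuclear subunits of the same complex, in each library, for liver (left) and pancreas (right) on log axes. Blue points are controls, red points A3B and the black lines group means. In pancreas all 6 A3B libraries lie below both controls in each complex, and in liver the groups overlap, with liver 48 far above the rest.

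Nuclear subunits of the respiratory chain also lay below the other genes in pancreas. Of 78 nuclear subunits tested, 63 fell and 15 did not pass with TMM, where 14.9% of all genes fell, and the median log2 fold change was -1.77 beside 0.09 over all genes. With total counts 36 were called higher and 5 lower, where 70.5% and 1.10% of all genes were, and the median was 0.62 beside 2.29 over all genes. The sign of the list's median thus depended on the scale, and its place below the median of all genes did not. By complex, 30 of 37 genes of complex I, 2 of 4 of complex II, 7 of 9 of complex III, 11 of 11 of complex IV and 13 of 17 of complex V fell with TMM. In complex I, the accessory subunits Ndufb2 (-3.13 ± 0.28), Ndufa1 (-3.22 ± 0.30) and Ndufb9 (-3.28 ± 0.32) had fold changes within the range of the mitochondrial genes, and these 3 were also called lower with total counts. In complex IV the small subunit Cox7b fell by 3.61 ± 0.35 on the log2 scale and was also called lower with total counts (-1.16, adjusted p = 0.00840 by edgeR). Cox6c and Cox7a2, at -2.72 and -2.97 with TMM, did not pass with total counts. In complex V, Atp5j (-2.14), Atp5j2 (-2.22) and Atp5e (-3.94 ± 0.45) fell with TMM, and of these Atp5e was also lower with total counts (-1.43). In complex III, Uqcr10, Uqcr11 and Uqcrq were at -2.32, -2.88 and -3.01 with TMM and did not pass with total counts. For complex II, which has no mitochondrial subunit, Sdhd and Sdhb were at -1.49 and -0.96 with TMM, while with total counts Sdhb was called higher (1.34).

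In liver 1 of the 78 nuclear subunits passed the test, Sdhd, a membrane anchor of succinate dehydrogenase, at -1.25 ± 0.29 (adjusted p = 0.0469 by edgeR), where 2.41% of all genes fell, and it did not pass with total counts. The median of the list was -0.12, with 33 positive and 45 negative fold changes. The summed TPM of the 78 genes was 19817 and 21439 in the control livers and 18194 to 31583 in the A3B livers, and 13416 and 13875 in the control pancreases and 10465 to 17634 in the A3B pancreases. On this per-library scale the sum of all 78 overlapped between the groups in both tissues. The sums by complex overlapped too, except for complex I in liver and complex II in both tissues. For complex I in liver the lowest A3B sum was 6137 against 5431 and 5866 in the controls. For complex II in liver the highest A3B sum was 844, below the controls at 867 and 908. For complex II in pancreas the lowest A3B sum was 261, above the controls at 104 and 176.

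**Figure D5:**
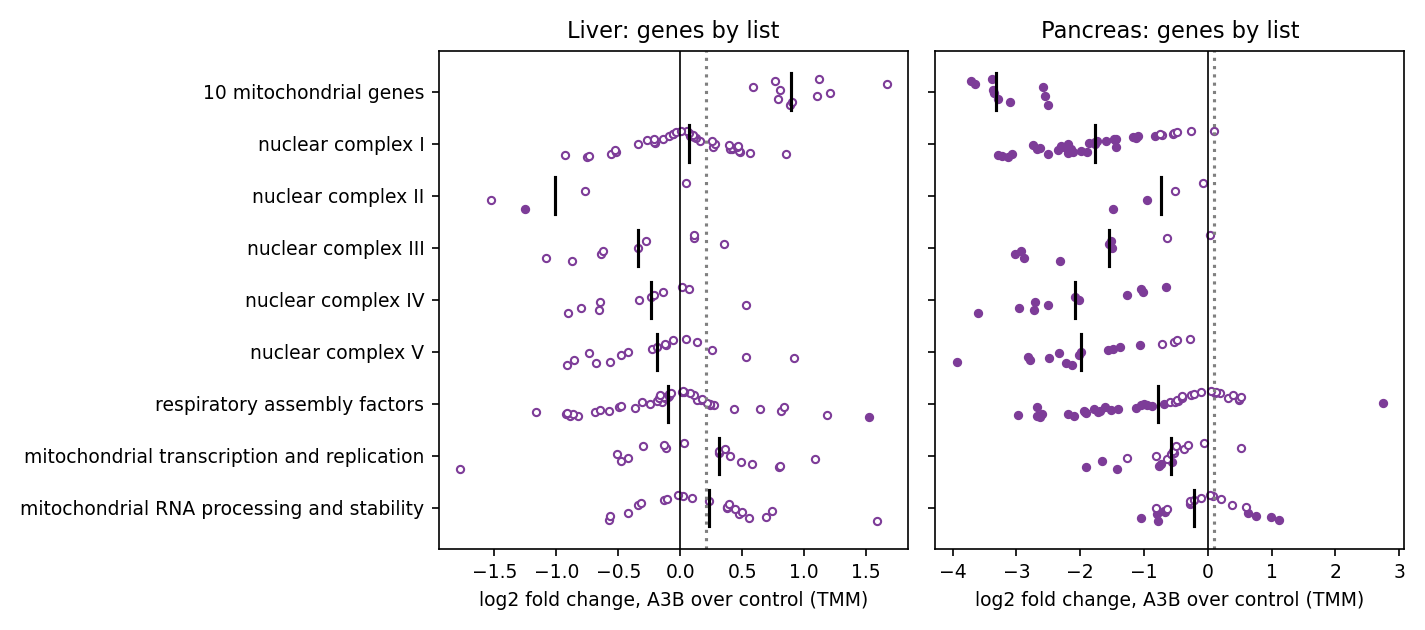
Log2 fold change of A3B over control on the TMM scale, 1 point per gene, for the 10 mitochondrial genes and lists of nuclear genes with mitochondrial roles, in liver (left) and pancreas (right). Filled points passed an adjusted p of 0.05, black ticks are list medians and the dotted line is the median of all genes. The 10 mitochondrial genes have a median of -3.32 in pancreas, where the 78 nuclear subunits have -1.77.

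Genes that transcribe, replicate and process the mitochondrial genome were followed as lists. Of 17 transcription and replication genes, 6 fell in pancreas with TMM (14.9% of all genes did), with a list median of -0.57. They include the methyltransferases Tfb1m (-1.43 ± 0.23, adjusted p = 0.00143 by edgeR) and Tfb2m (-0.56), the second of which serves transcription initiation, and Mterf2 (-1.91), Mterf3 (-0.73) and the single-stranded DNA binding protein Ssbp1 (-0.77). With total counts none of the 17 was lower and 13 were higher, where 70.5% of all genes were. In liver none of the 17 passed, with a median of 0.31. Of 21 RNA processing genes, 5 fell and 4 rose in pancreas with TMM, not far from the 14.9% and 17.0% of all genes, while 21 of 21 were called higher with total counts. Ptcd3 (-0.79) and Fastkd1 (-1.05) fell, and Pde12 (1.12), a phosphodiesterase that shortens mitochondrial poly(A) tails, Fastkd3 (0.99), Ptcd1 (0.75) and the mitochondrial poly(A) polymerase Mtpap (0.63) rose. In liver none of the 21 passed, and Hsd17b10, a subunit of mitochondrial RNase P, had the smallest p, with 630 ± 304 TPM (SD, n = 6) against 165 ± 6.24 TPM (SD, n = 2) and a log2 fold change of 1.59 ± 0.57 (adjusted p = 0.139 by edgeR). With total counts Hsd17b10 was the 1 of the 21 called higher in liver, beside 5.06% of all genes.

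Regulators of mitochondrial content were followed as a list of 12. In liver, where 1.26% of all genes rose, 1 of 12 did so, Ppargc1a, a coactivator of mitochondrial biogenesis, at 27.6 ± 16.7 TPM (SD, n = 6) against 2.87 ± 1.94 TPM (SD, n = 2), with a fitted log2 value of 2.85 ± 0.61 (adjusted p = 0.0373 by edgeR). All 6 A3B livers were above both controls. With total counts 4 of the 12 were called higher in liver, Ppargc1a included, beside 5.06% of all genes. In pancreas 2 of the 12 fell with TMM, Sirt3 (-1.354) and Esrra (-0.86), a share near the 14.9% of all genes. With total counts 10 of the 12 were called higher, Esrra included, beside 70.5% of all genes. Of the quality control genes none passed in liver. In pancreas Fundc1 (-1.49), Hspe1 (-1.68) and Atf4 (-1.30) were among those that fell with TMM. With total counts 18 of the 20 were called higher, Fundc1 and Atf4 included, beside 70.5% of all genes. Of 42 assembly factors, Cox11 rose in liver (1.53 ± 0.34, adjusted p = 0.0423 by edgeR). In pancreas 22 fell and 1 rose with TMM (14.9% and 17.0% of all genes), with Coa3 (-2.63), Cox14 (-2.10) and Cox16 (-2.67) among those with the smallest p and Sco2 (2.75) against the others, while with total counts 28 were higher, beside 70.5% of all genes, and none lower.

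Markers of cell types moved with the groups in pancreas, and their counts stand beside 14.9% of all genes lower and 17.0% higher with TMM, and 1.10% lower and 70.5% higher with total counts. The summed TPM of 9 acinar markers was 385541 and 379683 in control pancreases 45 and 168 and 64848 to 173340 in the A3B pancreases, and 8 of the 9 fell with TMM, among them Cela2a, Amy2a5 and Pnlip at -5.26, -7.20 and -7.83. With total counts 6 of the 9 were lower and 1 was higher. On both scales markers rose for ductal cells (4 of 6 higher, summed TPM 55.5 and 107 against 1280 to 3032), macrophages (5 of 6 higher, 45.2 and 532 against 1574 to 4705) and fibroblasts (5 of 6 higher, 39.6 and 172 against 963 to 1486), the counts being those with TMM. The 5 erythroid markers fell, from 2112 and 2773 to 41.9 to 914. Of 5 skeletal muscle markers 4 were called lower with TMM and 3 with total counts, but their summed TPM was 2.65 in control 45 and 38.9 in control 168 against 5.19 to 7.51 in the A3B pancreases, so the groups overlapped. Of 7 endocrine markers 2 were lower with TMM and 3 higher with total counts, and their summed TPM was 3434 and 3509 against 3758 to 13293. None of 6 T cell, 5 B and plasma cell and 6 adipocyte markers passed in pancreas on either scale. None of 7 hepatocyte markers passed with TMM, and 2 (Ttr and Cps1) were called higher with total counts. No marker of these lists was at 0 in all pancreases. The part of the change in cell composition in the fall of the mitochondrial genes was not tested.

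In liver none of the 7 hepatocyte markers passed, with summed TPM of 144521 and 87257 in the controls and 32032 to 84208 in the A3B livers, all 6 below both controls. The erythroid sum was 4350 and 1326 in the controls and 124 to 802 in the A3B livers, and 1 of 5 markers fell with TMM (Hbb-bt, -3.39), where 2.41% of all genes fell. Of the 9 acinar markers 1 fell with TMM, Cela1 (-2.68), which did not pass with total counts. Of the 9 fold changes 6 were positive, and the list median was 0.73. The acinar sum was low, 79.4 and 121 in the controls and 6.80 to 560 in the A3B livers. Liver 48, with the highest mitochondrial share, had the lowest macrophage and fibroblast sums of the 8 livers, 17.7 and 19.3, and the highest muscle sum, 68.2 against 1.03 to 33.8 elsewhere. Liver 49, with the second highest share, had the highest macrophage (719), fibroblast (208) and adipocyte (256) sums. Markers of T cells, B and plasma cells, ductal cells, endocrine cells and adipocytes had no called gene in liver, though the adipocyte sum was above both controls in all 6 A3B livers (27.1 to 256 against 11.2 and 16.6).

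The A3B effect on the mitochondrial genes differed between the tissues. An interaction term over all 16 libraries was negative for all 10 genes on the TMM scale, meaning a more negative A3B effect in pancreas than in liver, and passed for 9 of them, where 5.03% of 19908 genes passed in that direction (edgeR quasi-likelihood test). It was -4.38 ± 0.84 for mt-Nd6 (adjusted p = 0.00637), -3.47 ± 0.83 for mt-Nd5 (adjusted p = 0.0166) and -5.13 ± 1.34 for mt-Co2 (adjusted p = 0.0235). The exception was mt-Co1 at -2.99 ± 1.11 (adjusted p = 0.0895). As 7 mice gave both tissues, the mouse was also fitted as a replicate block, where the median was -3.18 in place of -3.95. In that fit 4 genes passed, mt-Nd6 (-3.81 ± 0.71), mt-Co2 (-3.76 ± 0.96), mt-Atp6 (-3.40 ± 0.85) and mt-Nd5 (-3.18 ± 0.83). The share of all genes that passed with the block is not given here. Liver 48 has no pancreas of the same mouse, and leaving it out without the block gave a median of -3.21. Whether the shift came from the pairing or from the libraries that can be paired was not tested. With total counts and no block 2 passed, mt-Co2 and mt-Nd6, where 1.12% of all genes did in that direction. The median was then -2.11 beside 1.59 over all genes. The count rested on the few controls. It was 0 without control liver 168, 1 without control liver 45 and 1 without control pancreas 45.

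Among the 5 A3B mice with both tissues, mouse 49 had the highest mitochondrial share of counts in liver (9.82%) and in pancreas (0.880%). The others lay between 3.25 and 4.63% in liver and between 0.478 and 0.644% in pancreas. Mouse 48, with the highest liver share, has no pancreas library here, and mouse 53, with the highest pancreas share, no liver library.

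The genes most like the 10 across libraries were found with the mean log2 CPM of the 10 genes on the TMM scale, over 8 livers and 8 pancreases, as the smaller of the Pearson r of the 2 tissues. Among 5271 genes with at least 10 TPM on average in each tissue, the 5 highest outside the mitochondrial genome and its copies were Etfrf1 (0.942), Gm10288 (0.932), Eny2 (0.916), Nudt14 (0.908) and 1810022K09Rik (0.907). The members themselves ranged from 0.889 (mt-Nd6) to 0.993 (mt-Nd2), as is built in for a gene that is part of the mean, and the nuclear copies from 0.455 (Gm28438) to 0.838 (Gm28437). Each r is a description over 8 libraries that share the group difference, and no test was made.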

How the data were processed

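RNA-seq of 16 liver and pancreas samples was used. The authors ran kallisto 0.46.1 against mouse transcripts and deposited, per transcript, its estimated count beside its TPM, with no further normalization of the estimated counts. TPM divides by transcript length, and neither value removes a change in composition between libraries. GENCODE M21 matched 116640 of 119414 transcripts to 35858 symbols. The 2774 unmatched transcripts held 0.230 to 1.47% of counts. Gene sums of estimated counts were rounded and passed through filterByExpr, and after TMM scaling edgeR 4.0.16 (R 4.3.3) compared the groups within each tissue by its robust quasi-likelihood test, and for the difference between tissues as an interaction over all 16 libraries. P-values were adjusted by Benjamini-Hochberg over all genes tested, with a threshold of 0.05. Total counts, RLE factors, DESeq2 1.42.0, limma 3.58.1 on log2(TPM + 1), no filter, added nuclear copies, Y-chromosome expression (Ddx3y above 1 CPM) and each library left out were alternatives. Replicates are separate mice. Liver and pancreas with the same number come from the same mouse, and the deviations of these pairs from their group means correlated at -0.0070 to 0.278 across genes, so the mouse was used as a replicate block in an alternative. Intervals for counting error were not given. On data simulated with 200 genes changed 4-fold at a dispersion of 0.25, 23% were recovered in the liver design of 17365 genes and 25.5% in the pancreas design of 19123, and 100% in both at 0.05. Dispersion is the square of the biological coefficient of variation, which was 0.570 in liver and 0.468 in pancreas. The liver data thus varied more than either simulation. The named genes were the 10 genes, from each list the members with the smallest p in a tissue plus those called against the majority, the 5 genes most like the mean, and nuclear copies with counts. Genes and lists were chosen with earlier results of these data known. Groups follow the titles. The table of TPM per gene that the authors deposited for 12 samples of another set has 24849 rows, none for these 10 genes, so those livers and lungs were not analysed here. Genes for library type and RNA quality (10 in the list) had no row in the transcript set. No table column was left unmapped. A result for 1 gene of the lists is not reported here.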

Additional observations from a re-analysis of the deposited data

Results flagged for a closer look

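In 44 sets of 6 A3B values, the highest or lowest library was checked against the rest. Chance marks about 1 in 20 such sets, and 6 were marked, all for liver 48 and not independent of each other. They were the summed share of the 10 genes (20.99% of counts, the next being 9.82%), the same with nuclear copies (22.88%, next 10.87%), mt-Co1 (7.19%, next 3.14%), mt-Cytb (3.84%, next 1.31%), mt-Nd4 (1.90%, next 0.719%) and mt-Co2 (1.496%, next 0.613%).

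The A3B effect in pancreas minus that in liver passed the interaction test of edgeR for 9 genes on the log2 scale: -5.13 for mt-Co2, -4.38 for mt-Nd6, -4.33 for mt-Atp6, -4.29 for mt-Co3, -4.00 for mt-Cytb, -3.90 for mt-Nd4, -3.82 for mt-Nd2, -3.47 for mt-Nd5 and -3.21 for mt-Nd1. With the mouse as replicate block 4 genes passed, with the block and total counts 1, and without control liver 168 none did (0 of 10).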

How the results depend on the processing

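In liver none of the 10 genes passed in any fit of all 8 livers or of 7, and all 10 kept a positive fold change in the fits of all 8 livers. Leaving out 1 liver gave medians of 0.22 to 1.05 with TMM and 0.84 to 1.53 with total counts, and without liver 48 4 genes turned: leaving out 1 liver with TMM gave -0.13 to 0.82 for mt-Co1, -0.078 to 0.97 for mt-Co3, -0.048 to 0.97 for mt-Cytb and -0.10 to 0.96 for mt-Nd4. Alternatives chosen after seeing the data were the fits without A3B livers 48 and 49, with totals that leave out mitochondrial genes and copies, and with 2 changes at once. Without livers 48 and 49 the median was -0.19, with -0.31 for mt-Co1, -0.079 for mt-Co2, -0.64 for mt-Co3, -0.21 for mt-Cytb, -0.15 for mt-Nd1, -0.17 for mt-Nd2, -0.35 for mt-Nd4 and -0.30 for mt-Atp6, and with total counts as well 1 gene passed (mt-Nd6) and mt-Co3 was at -0.13.

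In pancreas 10 genes passed in every fit of all pancreases with TMM, RLE or DESeq2 factors. With TMM they also passed whichever A3B pancreas was left out. Leaving out 1 pancreas with TMM gave medians of -3.80 to -2.42. All 10 passed too with the genes among the 10 most abundant of any library (49 in all) out of the totals, with a median of -2.18. With total counts 5 passed (median -0.81), with limma on log2(TPM + 1) 5 (median -0.80), with totals free of mitochondrial genes 5 (median -0.82), with copies and total counts 2 (median -0.70), and with total counts and 1 pancreas left out 1 (control 45, median -0.66, mt-Nd1 at 0.019), 2 (137, -0.74), 3 (153, -0.75), 4 (125, -0.81), 5 (44, -0.75), 6 (49, -0.89), 6 (control 168, -0.97) and 7 (53, -0.96). The ratio of mean shares was 0.579 to 0.694 with 1 pancreas left out and 0.263 with these genes, other than the mitochondrial ones, out of the denominator. In liver it was 1.58 to 2.68 with 1 liver left out. The median of all genes in pancreas was 2.29 with total counts, 1.75 with limma and 2.29 with copies and total counts.

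For the difference between tissues the count of 9 was 9 with RLE and without a filter, 8 with copies, 2 with total counts (median -2.11), 4 with the mouse as replicate block, 1 with the block and total counts (median -1.51) and 0 to 9 with 1 library left out (medians -4.43 to -3.12). The block could not be applied within a tissue, where each mouse has 1 library. Pseudocount, filter and leave-one-out alternatives for the other set were not run, since its table has no row for these genes. Each tissue has 2 controls, and a control left out leaves 1, assumed to vary like the other group. The cause of the differences between settings was not tested.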
